A study of Mus musculus with 1 sample.

Results

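Abl and Src family kinases were read on 1 array of RAW264.7 cells, macrophage-like mouse cells kept in culture. The line was raised from a tumour induced by the Abelson leukemia virus, whose oncogene is a form of the cellular kinase gene Abl1. The members are 9 genes taken by symbol from the platform's probe annotation, and 7 of them had a named probe, of 19321 genes with a named probe in all. They are the Abl kinases Abl1 and Abl2, the Src kinases of general use Src, Fyn and Yes1, the myeloid Src kinase Fgr, and the lymphoid Src kinase Blk. No named probe was matched to Lyn, a Src kinase of myeloid and B cells, or to Lck, the Src kinase of T cells, and both were not analysed here.

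The study set out to find genes that RAW264.7 cells need to take up peroxiredoxin, an antioxidant enzyme, by comparing parental cells with lines mutagenised by ENU. The sample used here is the parental line, untreated and grown in RPMI medium with fetal calf serum, and mutant lines were not analysed here. It is 1 sample of 1 line, so no value has a replicate error, no p-value is given, and the number of arrays limits the precision.

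Abl and Src kinases are cytoplasmic tyrosine kinases built from SH3, SH2 and kinase domains. Src family members are anchored to the inner face of the membrane by a lipid at their N-terminus and are held shut when a tyrosine in their tail is phosphorylated. In macrophages they phosphorylate the tails of Fc receptors and integrin-linked adaptors, which starts phagocytosis and spreading. Abl kinases bind actin and join signals from growth factors and adhesion to the shape of the cell. The viral Abelson kinase is active without such signals.

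A spot median is the middle pixel brightness of a probe's spot, in arbitrary units. It was set against 2 thresholds. The blank threshold, 22.98, is the mean plus 2 SD of empty spots with the lowest 5% and the highest 5% set aside, and 7.13% of all 2736 empty spots read over it. The receptor threshold, 55.8, is the 95th percentile over 1224 probes for receptors of smell and taste, which a macrophage has little known use for. Of these receptor probes, 36.9% also read over the blank threshold, so clearing that threshold alone is weak evidence of a transcript. Of all genes, 72.8% cleared the blank threshold and 42.8% cleared the receptor threshold. Of the 7 measured kinases, 6 cleared the blank threshold and 3, namely Abl1, Fyn and Fgr, cleared the receptor threshold. With 7 genes, neither count is read as a departure from the shares of all genes. Brightness also depends on the probe, so the kinases are not ranked against each other. Each had 1 probe.

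**Figure D1:**
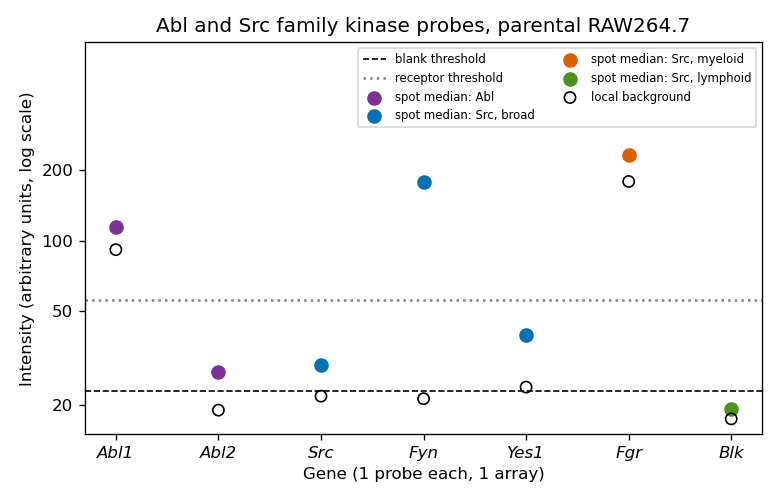
Spot median (filled points, coloured by use of the kinase) and local background (open points) of the 7 measured kinases on 1 array, in arbitrary units on a log scale. Abl1, Fyn and Fgr sit over the receptor threshold of 55.8 (dotted), Abl2, Src and Yes1 lie between it and the blank threshold of 22.98 (dashed), and Blk lies under both.

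Among the Abl kinases, Abl1 cleared both thresholds and Abl2 lay between them. The Abl1 probe (M400010952) read 115, which is 4.99 times the blank threshold and 2.06 times the receptor threshold. Its local background, the median brightness the scanner file gives for the surroundings of the spot, was 91.6, or 79.8% of the spot median. Among the 1211 probes within 20% of that brightness, the median background was 37.3% of the spot median, and 3.88% of them had a higher share than Abl1. The call of Abl1 over the receptor threshold rests on leaving that background in. After local subtraction Abl1 read 23.2 against a receptor threshold of 26.9 made the same way, a ratio of 0.860. It stood at 0.957 times the threshold made with normexp, a model-based background correction. For the kinases normexp gave nearly the subtracted value plus a constant, part of it the offset of 50. Both corrections called 7999 of all genes over the receptor threshold, so normexp is not a separate check. Its constant also draws multiples toward 1. Abl1 was also under the 99th percentile of the receptor probes, 146, which Fyn and Fgr cleared at 1.22 and 1.59 times. Under each of these added settings 2 kinases, Fyn and Fgr, cleared the receptor threshold. In the 10 settings planned for the threshold or the background, which do not include these, Abl1 lay over the threshold. Its multiples ran from 1.26, with normexp, to 5.26.

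The Abl1 spot had neighbours from 19.9 to 126 units on the array. Whether light from them raised its background was not tested. Where on the transcript the probe lies was not known here, so a transcript of the virus's kinase gene and one of the cell's own Abl1 cannot be told apart by this reading.

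The Abl2 probe (M400000948), for the relative also called Arg, read 27.5, or 1.20 times the blank threshold and 0.493 times the receptor threshold. Its local background was 19.0. The reading lay 5.84 SD of the trimmed blanks over their mean, yet under the 95th percentile of the receptor probes. The authors' deposited table gives Abl1 a value of 46 and Abl2 a value of 3, in a table whose median over probes with a value is 25.

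Of the Src kinases used in most tissues, Fyn cleared both thresholds, and Src and Yes1 lay between them. Fyn, which acts at receptors of immune and nerve cells, read 178 on its probe (M300001856), or 7.74 times the blank threshold and 3.19 times the receptor threshold. Its local background was 21.2, or 11.9% of the spot median, and 97.4% of the 1155 probes of like brightness had a higher share. With the local background subtracted, Fyn read 157 and stood at 5.81 times the receptor threshold, so its call was not lost with this correction.

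The founding member Src, the cellular counterpart of the Rous sarcoma virus oncogene, gave little signal on its 1 probe (M200004525). It read 29.4, or 1.28 times the blank threshold and 0.528 times the receptor threshold, beside a local background of 21.8. Yes1, a close relative of Src, read 39.8 (probe M200001809), or 1.73 and 0.714 times these thresholds, with a local background of 23.8. Both stayed over the blank threshold in each setting other than the receptor threshold. The lowest multiples, 1.03 for Src and 1.15 for Yes1, came with normexp, whose constant draws them toward 1. Local subtraction gave 1.31 and 2.74 times, and the 99th percentile of all blanks gave 1.19 and 1.61 times. A low reading can come from few transcripts or from a probe that binds poorly, and these cannot be told apart with 1 probe a gene.

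Of the myeloid pair Fgr and Lyn, Fgr alone had a named probe, and it cleared both thresholds. Fgr, which works in integrin and Fc receptor signalling of neutrophils and macrophages, read 232 (probe M200000515), or 10.1 times the blank threshold and 4.16 times the receptor threshold. As for Abl1, much of this brightness also lay around the spot. The local background was 179, or 77.0% of the spot median, against a median of 30.1% in 1006 probes of like brightness, of which 4.67% had a higher share. Unlike Abl1, Fgr kept its call after subtraction, at 53.4 units or 1.98 times the receptor threshold made the same way. With normexp, not a separate check, Fgr stood at 1.30 times. Its neighbours on the array read 22.6 to 728. The Fgr and Abl1 spots lie in the same one of the 24 blocks of the array, block 7. Among probes with spot medians between 100 and 260 units, the median background share of that block was 43.5%, and it ranged from 19.4% to 61.4% over the blocks.

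**Figure D2:**
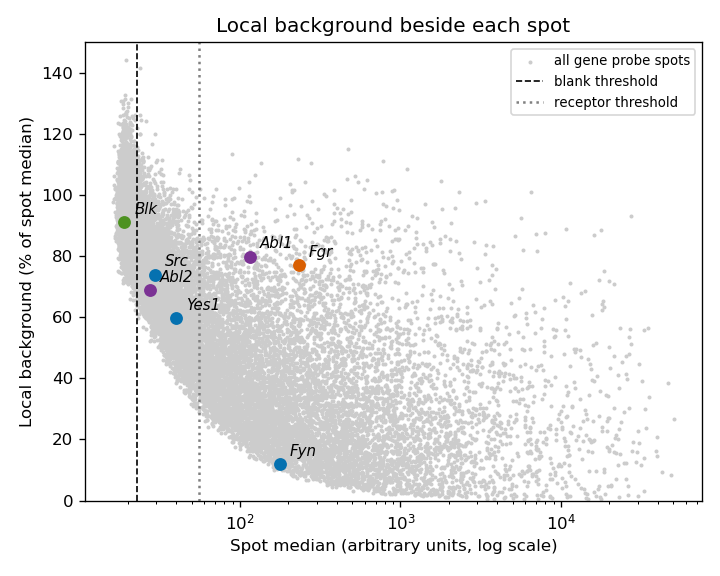
Local background as a percent of the spot median (vertical axis) against the spot median in arbitrary units (log scale) for all gene probe spots (grey) and the 7 kinases (coloured as by use). Abl1 and Fgr lie at 79.8% and 77.0%, near the upper edge of probes of their brightness, while Fyn lies at 11.9%, near the lower edge.

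Blk, the Src kinase of B lineage cells and the one measured lymphoid member, gave no signal over the blanks. Its probe (M200001527) read 19.1, or 0.831 times the blank threshold, at -1.31 SD of the trimmed blanks from their mean of 20.6, beside a local background of 17.4. The authors' deposited table leaves its cell empty, as it does for every probe with a spot median under 22.97, so this repeats the call. Blk was under the threshold in each of the 10 settings of the threshold or the background. Its multiples ran from 0.286, with local subtraction, to 0.939, with normexp, whose constant draws multiples toward 1.

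**Figure D3:**
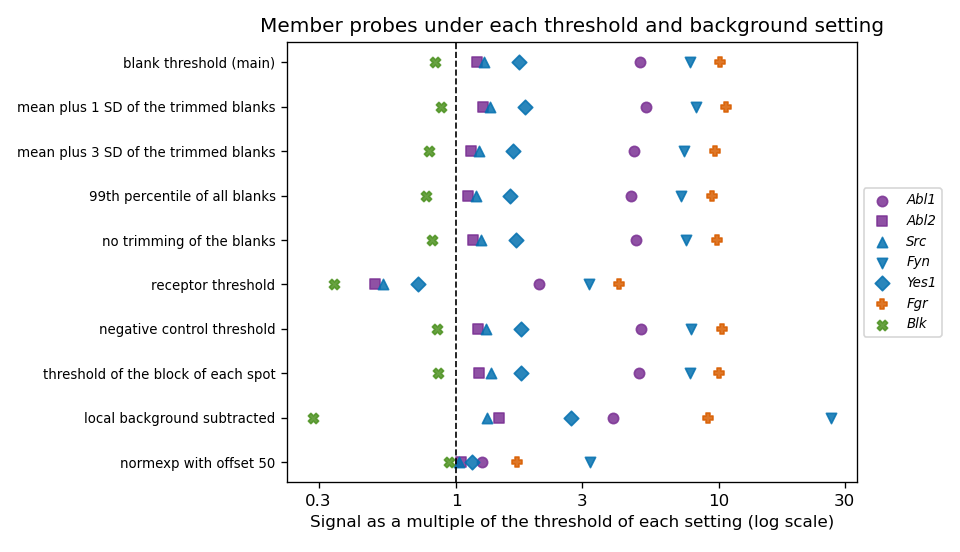
Reading of each kinase as a multiple of the threshold (log scale, dashed line at 1) under the blank threshold and 9 other settings, 1 array. The settings change the threshold or the background. The reading is the spot median, except with local subtraction and normexp, where reading and threshold are both background-corrected. Blk lies left of 1 in all 10, Abl2, Src and Yes1 cross to the left under the receptor threshold, and Abl1, Fyn and Fgr lie right of 1 in all 10. With normexp an added constant draws the points toward 1.

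Kinase domains of the Src family are alike in sequence, and probe sequences were not used here. How much of a reading comes from a relative, such as the unmeasured Lyn, was not tested. Of the other relatives, Frk read 26.4 and Srms read 28.1, both between the thresholds. Ptk6, an epithelial kinase, read 19.2 and was not over the blank threshold.

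The sequence before the gene starts, which the choice of members did not use, differed among them. RefSeq (GRCm38.p6) gave start sites for 7 of the 9 members, with 9 windows of 250 bases before the start, and none was matched for Lyn and Blk. Pairs of C followed by G, which are dense in promoters of widely used genes, numbered 40 for Src, 37 for Yes1, 25 for Abl2, 21 for Fyn, and 16 and 19 for the starts of Abl1. They numbered 9 for Fgr, and 1 and 3 for the starts of Lck. Over all 32851 windows the median was 6, with quartiles of 2 and 16. The calls did not follow this count from gene to gene. Src, with more pairs than 98.7% of all windows, lay between the thresholds, while Fgr, with more than 59.7%, cleared both.

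These 2 windows are shown because they differ most plainly in that respect among the measured Src kinases, a choice made after the counts were seen; capitals mark each CG pair. Src lies at chr2:157424043-157424292 and Fgr at chr4:132973845-132974094, both on the plus strand and printed 5′ to 3′.
Src: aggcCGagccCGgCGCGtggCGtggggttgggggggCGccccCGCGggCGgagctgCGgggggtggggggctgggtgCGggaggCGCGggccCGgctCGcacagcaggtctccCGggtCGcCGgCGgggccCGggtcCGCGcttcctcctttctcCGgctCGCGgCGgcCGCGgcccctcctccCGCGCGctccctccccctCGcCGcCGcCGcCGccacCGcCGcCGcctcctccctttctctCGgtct
Fgr: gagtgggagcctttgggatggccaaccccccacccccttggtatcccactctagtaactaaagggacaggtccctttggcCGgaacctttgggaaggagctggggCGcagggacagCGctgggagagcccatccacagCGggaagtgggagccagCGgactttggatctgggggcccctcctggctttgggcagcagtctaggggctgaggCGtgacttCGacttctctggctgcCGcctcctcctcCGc

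The core GAGGAA, which the myeloid factor PU.1 (Spi1) can bind, was searched on both strands. It occurred in 3 of the 9 member windows, 1 each of Abl1, Src and Lck, against 23.3% of all windows. A match is a string of letters and says nothing of binding.

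**Figure D4:**
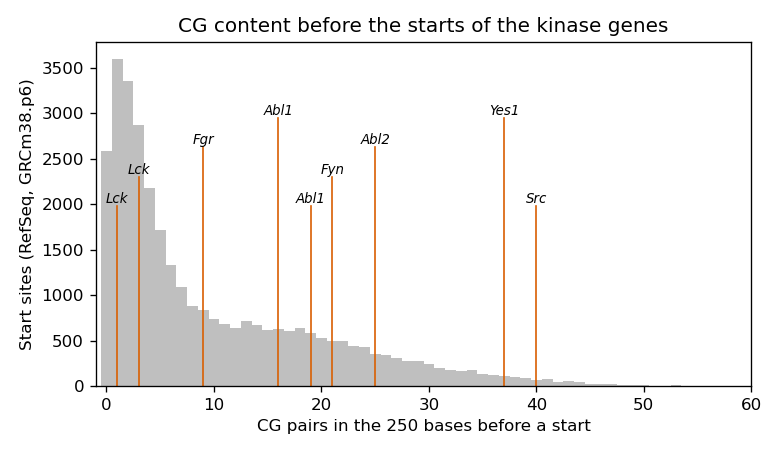
Number of CG pairs in the 250 bases before each of 32851 RefSeq start sites (grey bars, GRCm38.p6), with lines of arbitrary height at the counts of the members. Lck (1 and 3) and Fgr (9) lie left of the other members, which run from 16 to 40.

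Genes that regulate the Src kinases, some by restraining and some by activating them, were all measured. Of these 14 genes, 12 cleared the blank threshold and 8 the receptor threshold, with a median of 167. Over all genes 72.8% and 42.8% cleared these thresholds, and no list here or below was tested against those shares. Csk, the kinase that phosphorylates the inhibitory tail of Src family members, read 708, or 30.8 times the blank threshold. Its homologue Matk was not over the blank threshold at 20.5, and Pag1, the membrane anchor of Csk, lay between the thresholds at 24.2. Among phosphatases that can remove the tail phosphate, and so activate the kinases, CD45 (Ptprc) at 877, Ptpra at 723 and Ptpn1 at 597 cleared the receptor threshold. Ptpre, of the same kind, read 104 with a local background of 84.0, and its 20.1 units after subtraction lay under the receptor threshold of 26.9 made the same way, which leaves 7 of the 14 over it. Not all phosphatases of the list cleared it, as Ptprj and Ptpn11 lay between the thresholds at 24.2 and 35.2. Ptpn6, the phosphatase SHP-1 of blood cells, read 1424, and Ptpn22 and Ptpn12, which act on the activation loop or on substrates, read 409 and 230. The ubiquitin ligase gene Cbl lay between the thresholds at 49.5, and Cblb was not over the blank threshold at 22.3.

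Of 13 partners of Abl, 11 cleared the blank threshold and 9 the receptor threshold, with a median of 146. The Abl interactors Abi1, Abi2 and Abi3, which link it to the actin-building WAVE complex, read 146, 89.9 and 168. The adaptor Crk read 526, while its relative Crkl, a main substrate of Abl fusion kinases, lay between the thresholds at 29.9. The adaptors Nck1 and Nck2 read 239 and 240.3, and Dok1, a docking protein phosphorylated by Abl, read 199.8. Bcr, the fusion partner of human ABL1 in chronic myeloid leukemia, had probes at 24.8 and 22.1, on either side of the blank threshold. Rin1, an activator of Abl, at 22.4, and Sorbs2, at 19.8, were not over it. After local subtraction 8 of the 13 cleared the receptor threshold made the same way, with the adaptor Grb2 the gene lost.

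Of 7 measured genes that act downstream of Abelson kinases, 6 cleared the blank threshold and 5 the receptor threshold. The transcription factor Stat5b read 125 and Stat5a lay between the thresholds at 44.2. The kinase genes Pim1 and Pim2, targets of STAT5, read 101 and 70.1, the survival kinase Akt1 read 787, and the adaptor Shc1 read 93.7. Gab2, a docking protein of fusion Abl signalling, was not over the blank threshold at 19.9. None of these readings measures kinase activity.

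The partners of the Src kinases were taken by lineage. No gene was placed in several of these lineage lists, so the counts depend on where genes used by several lineages were put. All 17 measured myeloid partners cleared the blank threshold and 16 the receptor threshold, with a median of 440. Fcer1g, the signalling chain of Fc receptors, read 9468, its relative Tyrobp (DAP12) read 6325, and the substrate Hcls1 read 1336. The adaptor Skap2, which links Src kinases to integrins, read 2554, the integrin chain Itgb2 read 512, and the kinases Btk and Syk read 706 and 112. Pirb, an inhibitory receptor, lay between the thresholds at 36.9. With the local background subtracted, 14 of the 17 cleared the receptor threshold made the same way. The genes lost were the adaptor Lcp2, which read 116 beside a background of 94.6, and the kinase Ptk2b, which read 58.8 beside 39.7.

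Of 10 measured T cell partners, which include the coreceptors that carry Lck, 6 cleared the blank threshold and 0 the receptor threshold. The highest was Cd247 at 51.5, or 0.924 times the receptor threshold, followed by Txk at 39.6 and Cd28 at 35.7. Cd4 and Cd8a read 29.0 and 27.2, Cd3e read 20.1, and Zap70, the kinase that docks on the T cell receptor after Lck has acted, read 19.2. Of 5 measured B cell partners, 4 cleared the blank threshold and 2 the receptor threshold. Over all genes these shares were 72.8% and 42.8%. Cd79a and Cd79b, whose tails Blk and Lyn phosphorylate, lay between the thresholds at 28.9 and 29.2, while the adaptor Blnk read 1276 and the inhibitory receptor Cd22 read 58.6.

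**Figure D5:**
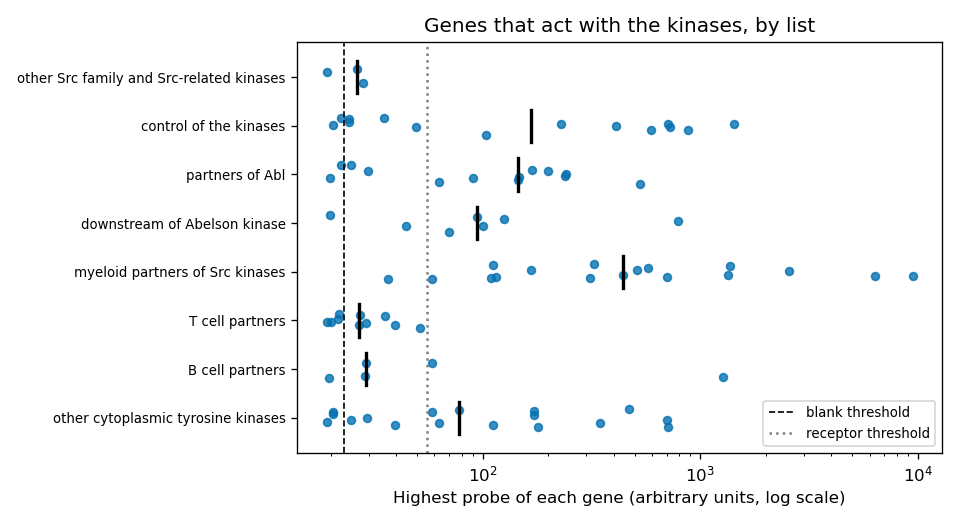
Highest probe of each measured gene (points, arbitrary units on a log scale) in 8 lists of genes around the kinases, with the list median (bar), the blank threshold (dashed) and the receptor threshold (dotted), 1 array. The myeloid partners, with a median of 440, lie over the receptor threshold in 16 of 17 cases, and the T cell partners, with a median of 27.1, in 0 of 10. These counts depend on the lineage list in which a gene used by several lineages was placed.

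Of 17 measured cytoplasmic tyrosine kinases outside both families, 14 cleared the blank threshold and 11 the receptor threshold. Besides Csk, Btk and Syk, which also stand in the lists above, these included Jak1 at 469, Fes at 345, Tyk2 at 179, Tec at 173 and Jak2 at 171. Of the 11, 10 stayed over after local subtraction, without Ptk2b. The list median was 77.8, and the median over all genes was 40.1.

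The label of the line was checked against markers. All 8 macrophage markers cleared the receptor threshold, against 0 of 8 for T cells, 1 of 5 for B cells and 0 of 5 for fibroblasts.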

How the data were processed

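One parental sample was hybridised as Cy5-labelled amplified RNA to a Toray one-colour array, per the labels' protocols. The deposited scanner file holds, per the file headers, the intensity of each spot at 635 nm as a median over pixels, and the median intensity of its local background, from 3 scanner gains. The way these gains were merged was not stated. The authors' deposited table holds processed intensity, which follows the spot median minus the mean of the trimmed blanks, times 0.486 (SD 0.000364 over 2987 probes). It leaves empty 6784 probes. Its scale was found from the values, and its reason and centring stay unknown.

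Of 27456 spots, 0 carried a bad flag. Signals were used without background subtraction. The blank threshold used 2464 of 2736 blanks. A gene took its highest probe. Names came from the platform annotation, updated through a RefSeq gene table (20556 of 20690 named probes matched; 0 probes had several symbols and 2783 had none). Alternatives were thresholds of 1 or 3 SD, the 99th percentile of blanks, untrimmed blanks, negative controls, the blanks of each block, the receptor threshold, the authors' table, local subtraction, normexp (limma 3.58.1, offset 50) and the lowest probe of a gene. Scripts ran in Python 3.11.15, and the threshold was tested on simulated data. Absent genes were drawn there with the mean and SD of the trimmed blanks, so the test checks the code and not the calls on this array.

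The members, the lists and the rule for named genes (all members, and any gene of the lists) were chosen with earlier results of these data known. Lists share genes such as Syk, Btk and Csk. Further receptor thresholds and the promoter counts were added after the values were seen.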

Additional observations from a re-analysis of the deposited data

How the results depend on the processing

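Counts of kinases over the blank threshold, by gene and by probe, stayed at 6 of 7 in every alternative run except the receptor threshold, which 3 cleared. In the alternatives added for that threshold, namely its 99th percentile, local subtraction and normexp, 2 cleared it, with Abl1 the gene lost. Some runs could not change the count. Each kinase had 1 probe, so the lowest-probe and per-probe runs repeat the main one. The authors' values begin at a spot median of 22.98, the blank threshold to that precision. Normexp nearly repeats local subtraction. The genes of the lists, cell type markers included, were 92 measured outside the members. Of these, 79 were over the blank threshold, 70 with local subtraction or normexp and 53 at the receptor threshold. Over all genes the share ran from 63.2% with local subtraction to 77.2% with 1 SD, and was 42.8% at the receptor threshold. A higher threshold calls fewer genes by its construction. With 1 array there was no replicate to leave out. Low signal limits Abl2, Src and Yes1, whose readings lie under the 95th percentile of the receptor probes. High local background limits Abl1 and Fgr, where it was 79.8% and 77.0% of the spot median.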
